A study of Mus musculus with 6 samples.

Results

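Slc6a4 encodes the serotonin transporter, and its locus is described here for binding of Ezh2 in mouse Th1 and Th2 cells. The gene was chosen by the ratio of Ezh2 in Th1 to Ezh2 in Th2 over the 5 kb around its start, measured in these same libraries. It is the 1 gene that was placed on the reads, by a given mm9 window of 50 kb on chromosome 11 from 76.80 to 76.85 Mb. The gene lies on the plus strand with its 5′ end near 76.812 Mb. Of the 50 bins of 1 kb in the window, the 5 from 76.809 to 76.814 Mb are called the promoter here, and the 36 from there to the end of the window the gene body. The gene body runs past the end of the gene, whose length is 33747 bases in RefSeq (GRCm38.p6). The 9 bins before the promoter are the upstream part of the window. Over chromosomes 1 to 19 and X, the libraries covered 2638957 bins.

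Naive CD4 T cells (CD44 low, CD62L high) from the spleens of C57BL/6 mice were cultured for 5 days. For the first 2 days they received 10 µg/ml of antibody to TCRβ and 1 µg/ml of antibody to CD28, and for the other 3 days neither. All cultures contained IL-2 at 15 ng/ml. Th1 cultures also contained IL-12 at 10 ng/ml with an antibody that blocks IL-4, and Th2 cultures IL-4 at 100 ng/ml with an antibody that blocks IFN-γ. Chromatin immunoprecipitation followed by sequencing (ChIP-seq) gave an Ezh2 pull-down, a pull-down with control rabbit IgG and an input library per cell type, 1 library in each group. No deletion or transgene is named in the labels, and neither the number of animals nor their age is given there.

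With 1 library per group, no replicate spread could be measured. All intervals below are 95% intervals that cover counting error only, and every comparison is between libraries. The sequencing run labels of the Th1 and Th2 Ezh2 libraries also differ, so run and cell type cannot be told apart. A position is a distinct deposited interval, counted once by its midpoint whatever its number of reads, and a scaled level is the number of positions per 1000000 positions of the library on chromosomes 1 to 19 and X. Those totals were 10809666 in the Th1 Ezh2 library and 14963599 in the Th2 Ezh2 library. They were 15578675 and 12862628 in the Th1 and Th2 inputs, and 9326717 in the Th1 control antibody library. The Th2 control antibody library was not used here, since the file at hand holds no chromosome 11.

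The serotonin transporter takes released serotonin back into cells together with sodium and chloride ions. It ends serotonin signalling in the brain, loads platelets with serotonin, and is the target of the antidepressants known as selective serotonin reuptake inhibitors. Ezh2 is an enzyme of the Polycomb group that adds methyl groups to a lysine of histone H3, a mark of repressed genes. In mammals its complex is found mainly at CpG-rich promoters of genes that the cell does not use, among them many regulators of development.

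The sequence before the start of Slc6a4 is shown because it falls inside the stretch with the most Ezh2 positions. It comes from RefSeq (GRCm38.p6, chr11:76998347-76998596, plus strand), where the gene matched by symbol, and was not lifted to the mm9 coordinates of the reads. The 250 bases end just before the start, and capitals mark CpG dinucleotides.
Slc6a4 promoter: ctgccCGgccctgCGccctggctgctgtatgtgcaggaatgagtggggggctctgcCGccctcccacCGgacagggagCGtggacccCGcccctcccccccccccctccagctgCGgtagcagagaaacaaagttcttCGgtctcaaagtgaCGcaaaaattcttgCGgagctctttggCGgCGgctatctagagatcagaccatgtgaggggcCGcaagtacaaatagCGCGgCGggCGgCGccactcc
This stretch held 18 CpG dinucleotides, against a median of 6 in the same stretch of 32851 RefSeq promoters, of which 21.7% held as many or more. Its GC content was 64.8%, against a median of 52.4%, and the ratio of observed to expected CpG was 0.688, against a median of 0.373. The CpG dinucleotides were most closely spaced at the end of the stretch, next to the start. Of 3 short motifs searched on both strands, GGGCGG, the core of a GC box, matched 3 times and occurred at least once in 32.7% of promoters. TGACG, shared by many cyclic AMP response elements, matched 1 time, 101 bases before the start, and occurred in 17.8% of promoters. The motif TATAAA, found in some core promoters, had no match in this window and occurred in 12.4% of promoters. These matches describe letters and were not tested as binding sites.

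Ezh2 was enriched at the promoter of Slc6a4 in both cell types, and more so in the Th1 library. The 5 promoter bins held 226 Ezh2 positions in Th1 and 145 in Th2, although the Th2 library was the deeper of the pair. They held 52 positions in the Th1 input, 36 in the Th2 input and 29 with the Th1 control antibody. The scaled Ezh2 level per kb was 4.18 (3.65 to 4.76) in the Th1 library and 1.94 (1.63 to 2.28) in the Th2 library. The inputs stood at 0.668 (0.499 to 0.875) and 0.560 (0.392 to 0.775), and the control antibody at 0.622 (0.416 to 0.893). The Ezh2 interval of Th1 lay wholly above that of Th2, and both lay above the inputs and the control antibody. The gene was chosen by these Ezh2 positions, so this order is a description and not a test.

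Ezh2 at the promoter exceeded the input of the same cell type 6.26-fold (4.62 to 8.64) for Th1 and 3.46-fold (2.39 to 5.14) for Th2. The ratio of Ezh2 in Th1 to Ezh2 in Th2 was 2.16 (1.74 to 2.68). This ratio chose the gene, so it is a description and was given no test. Once the inputs entered, the fold in Th1 divided by the fold in Th2 was 1.81, with a wider interval of 1.13 to 2.90 (normal approximation on the log scale) because the inputs held few positions. The same approximation gives the intervals of all quotients of folds below. This quotient depended on the stretch taken: in the last 3 kb of the promoter it was 1.06 (0.549 to 2.06), on 33 input positions for Th1 and 15 for Th2. The input and control antibody values did not enter the choice and were tested. The Th1 control antibody was 0.932-fold over its input (0.570 to 1.49, two-sided exact binomial test, adjusted p = 0.819 over 2 tests). The Th1 input was 1.19-fold over the Th2 input (0.765 to 1.88, two-sided exact binomial test, adjusted p = 0.819). Neither test passed, and the intervals still allow differences as large as their bounds.

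**Figure D1:**
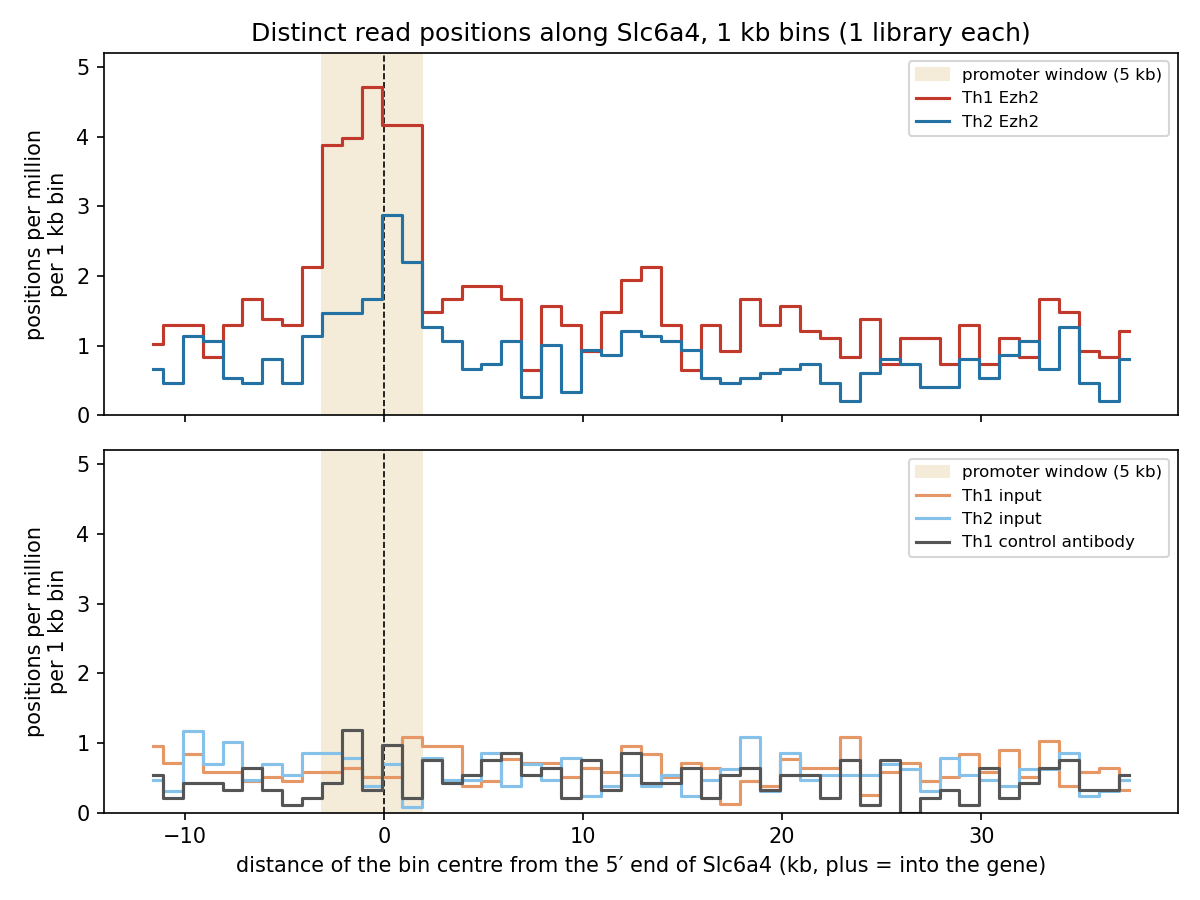
Scaled level (positions per 1000000) in each 1 kb bin against the distance of the bin's centre from the 5′ end of Slc6a4 in kb, with both Ezh2 libraries above and both inputs and the Th1 control antibody below on the same scale. The shaded 5 kb are the promoter, where Th1 Ezh2 stood between 3.89 and 4.72 per bin and Th2 Ezh2 between 1.47 and 2.87.

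Along the promoter, the Ezh2 counts had a different outline in each library, a difference that was not tested. In Th1 the counts, before division by input, were nearly flat, with 42, 43, 51, 45 and 45 positions in the 5 bins from upstream to downstream. In Th2 they were lower upstream, with 22, 22 and 25 positions, and higher in the bin that holds the start and in the next, with 43 and 33. Scaled to the library totals, the Th1 to Th2 ratio was 2.64 (1.54 to 4.65), 2.71 (1.58 to 4.75) and 2.82 (1.72 to 4.76) in the 3 bins before the start. It was 1.45 (0.932 to 2.25) in the bin with the start and 1.89 (1.18 to 3.05) in the last. The interval of the start bin reached below 1, and those of the 3 upstream bins did not.

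Joined after these values were seen, the 3 upstream bins held 136 (Th1) and 69 (Th2) Ezh2 positions, which scaled to a ratio of 2.73 (2.03 to 3.70). The 2 bins from the start on held 90 and 76, a ratio of 1.64 (1.19 to 2.26). These intervals overlap, and the difference between them was not tested. The fold over input of the upstream bins was 7.26 (4.78 to 11.4) for Th1 against 2.28 (1.43 to 3.73) for Th2. From the start on it was 5.19 (3.30 to 8.44) for Th1 against 6.53 (3.37 to 14.2) for Th2. The quotient of these folds, Th1 over Th2, was 3.18 (1.73 to 5.87) in the upstream bins. From the start on it was 0.794 (0.359 to 1.76), an interval that includes 1. That value rests on few input positions, 25 for Th1 and 10 for Th2, of which the last bin held 17 and 1.

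In bins of 500 bp, the highest Th1 value was 31 positions in the bin that ends 100 bases before the start, where Th2 had 11. In the next bin, which holds the start, each cell type had 22. The highest Th2 value was 23 positions in the bin from 900 to 1400 bases past the start, where Th1 also had 23. Raw counts were equal in these 2 bins, and the scaled level was higher in Th1, whose library is smaller. At the edges of the promoter the Th1 count changed more than the Th2 count. The 1 kb bin just before it held 23 positions for Th1, against 42 in the first bin of the promoter, and 17 for Th2, against 22. The bin just after it held 16 for Th1, against 45 in the last bin of the promoter, and 19 for Th2, against 33. In bins of 500 bp, the Th2 counts across the upstream edge were 8, 9, 11 and 11, and the Th2 count had already fallen from 23 to 10 inside the promoter, with 13 just past its downstream edge.

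**Figure D2:**
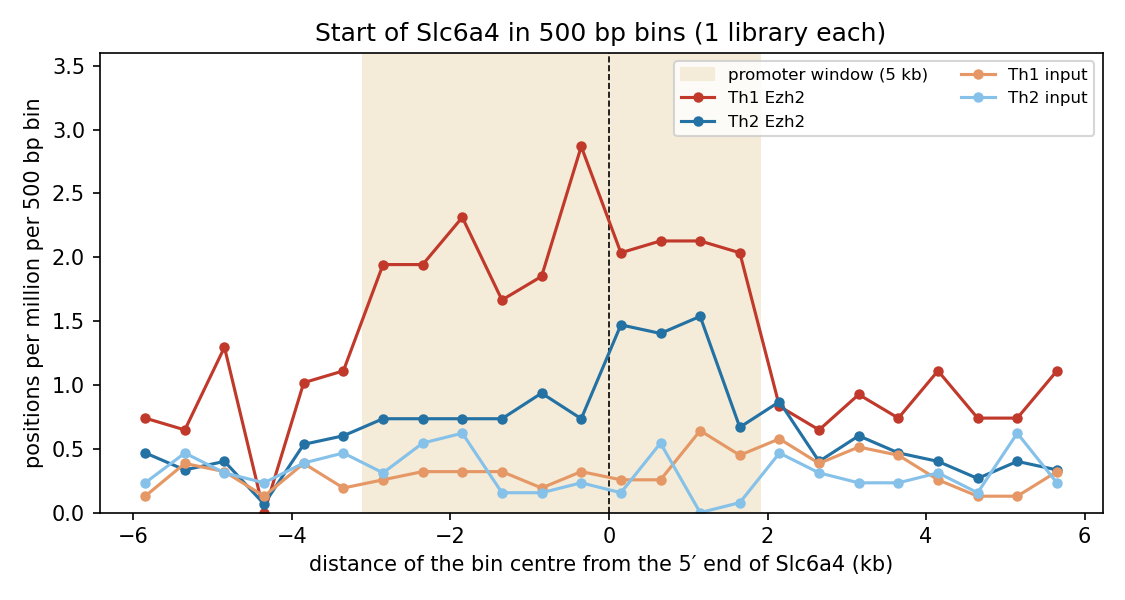
Scaled level (positions per 1000000) in bins of 500 bp around the 5′ end of Slc6a4, against distance in kb, for both Ezh2 libraries and both inputs. Th1 Ezh2 stays between 1.67 and 2.87 throughout the shaded promoter. Within the promoter, Th2 Ezh2 stays between 0.735 and 0.936 before the start, reaches 1.54 after it and falls to 0.668 in the last bin.

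More single bins of the window were called in Th1 than in Th2, which does not show that the enriched stretch was narrower in Th2. A bin was called where Ezh2 exceeded input at a Benjamini-Hochberg adjusted p below 0.05 (one-sided exact binomial test over all tested bins) and at least 2-fold. In Th1, 7 of the 50 bins of the window were called, against 0.992% of all bins tested, and in Th2 2 of 50, against 1.21%. All 5 promoter bins were among those called in Th1, and the last 2 promoter bins were those called in Th2. Since the locus was chosen for its Ezh2 signal, nothing is read from these shares. The counts moved with the setting. With all deposited reads, 23 bins were called in Th1 (3.83% of all bins tested) and 7 in Th2 (5.83%). At a fold of at least 4 and an adjusted p below 0.001, the calls were 4 for Th1 (0.465%) and 1 for Th2 (0.625%). The Th1 control antibody gave 0 called bins in the window, against 0.00151% of all bins tested, and 0 of 45 tested bins had an unadjusted p below 0.05.

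The 2 called Th1 bins outside the promoter were the bin just before it, 3.57-fold over input, and a bin 3.9 to 4.9 kb past the start, 4.55-fold. In Th2 these bins stood at 1.31-fold and 1.39-fold. The promoter bin just before the start was not called in Th2, at 3.99-fold on 5 input positions. Beyond the window, the nearest bins called in Th1 lay 72 kb before it and 42 kb after it, and those in Th2 45 kb before and 429 kb after. RefSeq (GRCm38.p6) lists Blmh, which encodes bleomycin hydrolase, as the coding gene before Slc6a4, and Nsrp1, which encodes a regulator of splicing, as the one after it.

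Ezh2 in the gene body was lower than at the promoter in both cell types, and it too was higher in Th1. The 36 bins held 492 (Th1) and 395 (Th2) Ezh2 positions. A single bin held between 7 and 23 in Th1, with a median of 14, and between 3 and 19 in Th2, with a median of 11, so the ranges overlap widely. The scaled level per kb was 1.26 (1.15 to 1.38) for Th1 and 0.733 (0.663 to 0.809) for Th2. As a fold over input this was 2.00 (1.74 to 2.30) for Th1 and 1.35 (1.15 to 1.58) for Th2. The control antibody stood at 0.760-fold (0.627 to 0.918), below input.

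The promoter exceeded the gene body in both Ezh2 libraries. Ezh2 positions per kb were 3.31 times those of the gene body (2.81 to 3.88) for Th1 and 2.64 times (2.17 to 3.21) for Th2. Measured as fold over input, the factors were 3.13 (2.25 to 4.35) and 2.57 (1.73 to 3.82), with overlapping intervals and no test of their difference. In the inputs the same quotient of positions per kb was 1.06 (0.775 to 1.42) in Th1 and 1.03 (0.704 to 1.46) in Th2, and with the control antibody it was 1.30 (0.842 to 1.93). Of all positions in the window, the promoter held 26.6% in the Th1 Ezh2 library (23.6 to 29.7) and 22.6% in the Th2 one (19.4 to 26.1). It held 10.5% and 9.78% of those of the inputs.

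The excess of Ezh2 in Th1 was not limited to the promoter. In the gene body the Th1 to Th2 ratio was 1.72 (1.51 to 1.97), and 32 of the 36 bins had more scaled positions in Th1. Among all bins with at least 10 Ezh2 positions over both libraries, 49.6% had more in Th1. Outside the window but within about 500 kb of the 5′ end, 59.5% of such bins did. The bins of the window adjoin each other in single libraries, so they are not replicates. In the upstream part of the window the ratio was 1.81 (1.39 to 2.37), on 132 (Th1) and 101 (Th2) positions, with 8 of 9 bins higher in Th1. The fold over input there was 2.16 (1.64 to 2.86) for Th1 and 1.08 (0.801 to 1.47) for Th2, so the interval lay above 1 for Th1 and included 1 for Th2. The control antibody was 0.569-fold over input there (0.363 to 0.871), on 30 positions. The fold over input in Th1 divided by that in Th2 was 1.49 in the gene body (1.21 to 1.83) and 1.99 in the upstream part (1.34 to 2.97).

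Outside the window the ratio was closer to 1. In the 50 kb before it, Ezh2 in Th1 was 1.14 times that in Th2 (0.992 to 1.31), and in the 50 kb after it 1.15 times (0.998 to 1.34). Over input, Ezh2 there stood at 1.26-fold and 1.15-fold in Th1, and at 1.12-fold and 1.02-fold in Th2. Within about 500 kb of the 5′ end and outside the window, 892 bins were not called on both Ezh2 libraries together. Their joint Th1 to Th2 ratio was 1.15. Of the 838 bins in that span with at least 10 Ezh2 positions, 59.5% were higher in Th1. The surroundings of Slc6a4 therefore leaned slightly toward Th1 as well, and divided by their ratio the promoter stood at 1.88 (1.52 to 2.33). The part of this local lean in the result was not tested further.

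**Figure D3:**
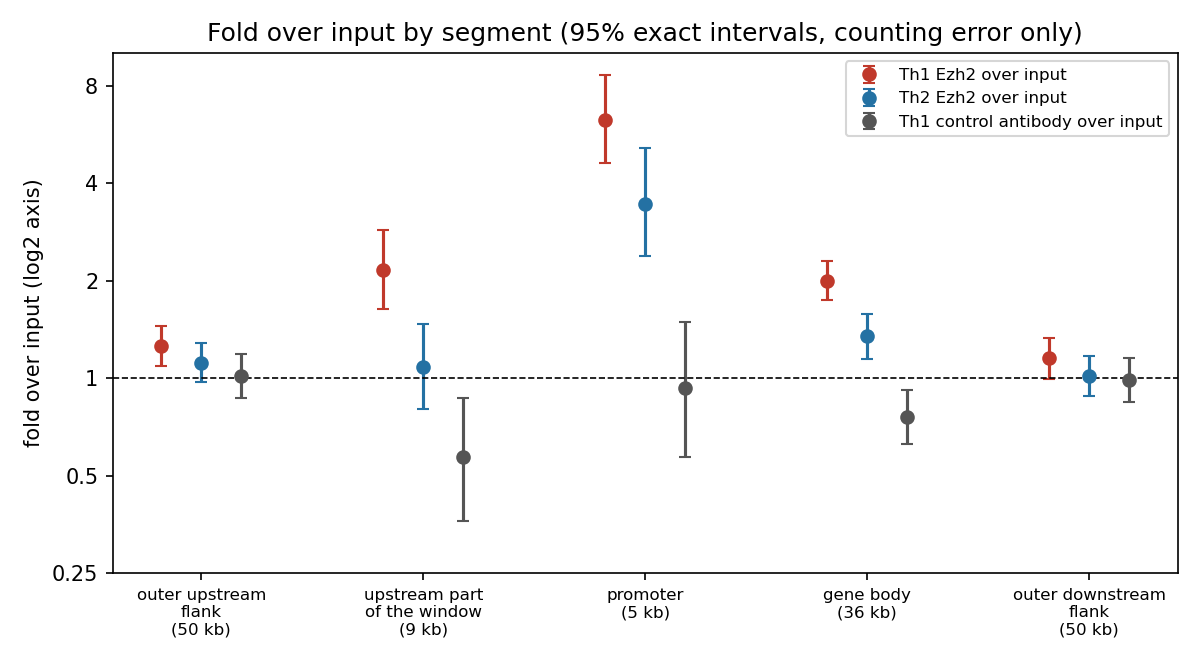
Fold over the input of the same cell type on a log2 axis for the 50 kb before the window, its 9 kb upstream part, the 5 kb promoter, the 36 kb gene body and the 50 kb after the window, with 95% exact intervals for counting error. Th1 Ezh2 is highest at the promoter at 6.26-fold. Its value lies above that of Th2 Ezh2 in each segment, but their intervals overlap at the promoter and in the 50 kb before and after the window. The Th1 control antibody lies at or below 1.02-fold.

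Reads per position at the promoter were 2.05 for Th1 Ezh2 and 1.93 for Th2 Ezh2, each below the library's average of 2.24 and 2.04. With all deposited reads in place of positions, the Th1 to Th2 ratio at the promoter was 2.08.

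Placed among the genome, the promoter stood out in Th1 more than in Th2. Of 471908 tiles of 5 kb with at least 20 input positions, 0.160% had an Ezh2 fold over input as high in Th1, and 0.744% in Th2. Both shares describe a locus that was chosen for its signal. The promoter's Th1 to Th2 ratio of Ezh2 positions, without input, was reached by 1.71% of the 471908 tiles. Among 9303 tiles with at least 2-fold pooled Ezh2 over pooled input, 0.215% had as high a ratio, and 0.279% reached 2-fold toward Th1. The gene body was compared with the promoter by the rule that set this locus, so its ranks are descriptions too. Its Th1 to Th2 ratio was reached by 26 of 68003 tiles of 36 kb (0.0382%), where the median tile was at 0.995. On chromosome 11 alone, 0.152% of 3289 tiles did so. For its Ezh2 fold over input, 1.62% of tiles were as high in Th1 and 8.13% in Th2. The upstream part had a ratio that 1.51% of 266059 tiles of 9 kb reached.

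Bins called on both Ezh2 libraries together and merged gave 2902 enriched regions of at least 3 kb. The region at Slc6a4 was 5 kb long and had the same limits as the promoter, which was set with earlier results of these data known. By its Th1 to Th2 ratio of Ezh2 positions, without input, the region was number 6 of the 2902, and number 1 of the 362 regions of its length. Since this ratio chose the gene, a high rank follows from the choice and is only a description. Ranked by fold over input it was number 272 for Th1 and number 2196 for Th2. Its Th1 fold was above that of the median region (3.75) and its Th2 fold below it (4.52). Scaled by library totals, 0.276% of regions reached 2-fold toward Th1, and scaled by the median ratio of the regions 0.724% did.

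The 3 regions most like it, by distance between the log2 folds over input of Th1 and of Th2, lay on chromosomes 12, 4 and 2. The nearest, on chromosome 12 from 80230001 to 80234000, had folds of 5.95 (Th1) and 3.51 (Th2). Its Ezh2 positions alone had a Th1 to Th2 ratio of 0.893 (0.666 to 1.19). Its control antibody fold was 2.27, on 19 input positions for Th1. Next was chromosome 4 from 123017001 to 123020000, with folds of 6.17 and 3.72 and a ratio of 0.873 (0.607 to 1.25), on 12 input positions for Th1. These 2 regions resembled Slc6a4 in fold, while the intervals of their ratios included 1.

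The third, on chromosome 2 from 9804001 to 9822000, had folds of 5.65 (Th1) and 3.36 (Th2). It was 18 kb long with 605 (Th1) and 549 (Th2) Ezh2 positions, a scaled ratio of 1.53 (1.36 to 1.72), and a control antibody fold of 1.10. Of these 3, it was the region whose Ezh2 positions also leaned toward Th1. No mm9 annotation was used here, so the genes in these regions were not named, and other genes of serotonin synthesis, transport and reception were not placed on the reads.

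**Figure D4:**
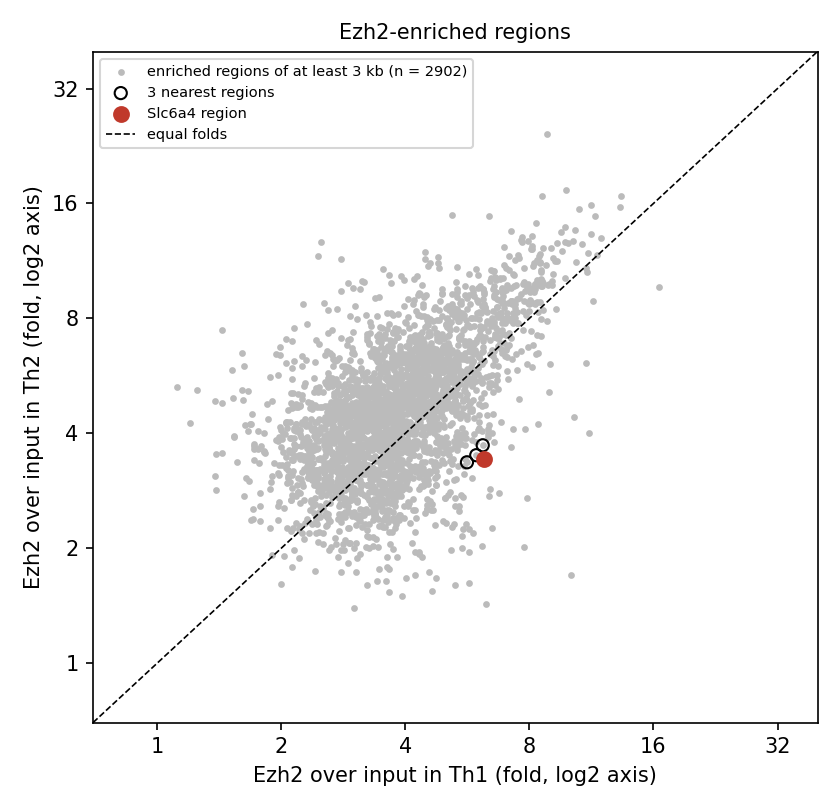
Ezh2 over input in Th1 and in Th2, with 0.5 added to each count, for the 2902 enriched regions of at least 3 kb, on log2 axes with the line of equal folds. The Slc6a4 region lies below that line at 6.22-fold in Th1 and 3.43-fold in Th2, close to the edge of the main cloud. The 3 nearest regions each have a lower Th1 fold.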

How the data were processed

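The deposited files give genomic intervals with the count of reads on each, with no normalization and no strand. Per the submitters' processing notes, CASAVA and mm9 were used. Settings of the alignment, filters and read extension are not given in the sources used here. Fragments of 170 to 250 bp had been amplified by 18 PCR cycles and read for 36 cycles, per the labels' protocols. Nearly all intervals were 119 bp long.

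Each distinct interval was counted once at its midpoint in 1 kb bins and scaled by the library's total. Bins with at least 10 positions over both libraries were tested against input by a one-sided exact binomial test (Benjamini-Hochberg adjusted), with 0.5 added to each count for the fold. Called bins with gaps of at most 1 bin were merged. Ratios have exact (Clopper-Pearson) 95% intervals; levels have exact Poisson ones. Depth limits single bins most, with 1 to 17 input positions per promoter bin. PCR reads carry no molecular identifiers. With 1 library per group, intervals cover counting error only. Analyses used Python 3.11.15, numpy 2.4.6, scipy 1.17.1 and pandas 2.3.3.

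In mm9, the window was chromosome 11 from 76800001 to 76850000, the promoter 76809001 to 76814000 and the 5′ end 76812100. The gene, its window, the bin rule and the alternatives were chosen with earlier results of these data known. The rule for named items took every promoter bin, the bins beside it, every called bin of the window and the 3 regions nearest in fold. Alternatives were all reads, other scalings, other windows, interval starts, equal depth, the other input, the control antibody as background and other call limits.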

Additional observations from a re-analysis of the deposited data

How the results depend on the processing

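Under 8 alternatives, the Th1 to Th2 ratio of Ezh2 at the promoter ranged from 1.81 to 2.53. The lowest was the quotient of the folds over input, and the highest was the ratio divided by the median ratio of enriched regions. Each of these changed a single setting. With the 3 kb promoter and the folds over input together, the quotient was 1.06 (0.549 to 2.06). From the start bin on, it was 0.794 (0.359 to 1.76). These last values are not among the alternatives counted here. Division by the surrounding bins was added after seeing the data. Of 32 alternatives over all results, 27 stayed within the interval of the main value, within 1.5 times the main count or on the same side of the test, none turned direction, and 5 moved. In a narrower promoter of 3 kb, which leaves out the first 2 bins, Ezh2 over input in Th2 was 5.79-fold, on 15 input positions, while Th1 stood at 6.16-fold. The number of called bins in the window was 7 in Th1 and 2 in Th2. At a fold of at least 4 and an adjusted p below 0.001 it was 4 and 1, and with all deposited reads 23 and 7. The cause of these moves was not tested. No paired analysis was possible because the groups hold 1 library each.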
